A study of Mus musculus with 6 samples.

Results

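The 10 genes described here encode the main parts of the calcium store and calcium entry machinery of the pancreatic acinar cell and were chosen by symbol. They are the release channels Itpr1, Itpr2, Itpr3 and Ryr2, the pumps Atp2a2 and Atp2b1, the store-operated entry genes Stim1, Orai1 and Saraf, and the mitochondrial uptake channel Mcu. All 10 were found among the 22556 genes of the deposited tables, and 9 of them passed the filter of a mean of at least 1 TPM (a library-scaled transcript level that accounts for transcript length) over the 6 libraries. Ryr2 did not pass. RNA was sequenced from whole pancreas of wild-type C57BL/6 mice at 8 weeks of age. There were 3 groups of 2 libraries each, namely mice given saline, mice given caerulein (Caerulein-AP, called AP here for acute pancreatitis) and mice given polyI:C before caerulein (PolyI:C+Caerulein-AP, called polyI:C+AP). Caerulein is an analogue of the gut hormone cholecystokinin that overstimulates acinar cells, and polyI:C is a synthetic double-stranded RNA that mimics viral RNA. The comparisons ask how the transcripts of this machinery stood in AP, and how they stood in AP after polyI:C pretreatment.

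In acinar cells, secretagogues such as cholecystokinin raise inositol trisphosphate, which opens inositol trisphosphate (IP3) receptors in the endoplasmic reticulum and lets stored calcium into the cytosol, where it triggers release of digestive enzymes. SERCA pumps return calcium to the store, plasma membrane pumps expel it, and an emptied store is sensed by STIM1, which opens the ORAI1 channel at the cell surface. Sustained, global calcium elevation is a known early event in experimental pancreatitis, where excess entry and mitochondrial uptake are linked to premature enzyme activation and cell death.

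Reads per library, estimated from the spacing of low TPM values, ranged from 3296940 to 3972068 in saline mice and from 6931984 to 10852446 in the other 4 libraries, so that low genes were measured least precisely in saline mice. The bulk libraries hold every cell type of the pancreas, and fewer cells of a type cannot be told apart from less RNA per cell. The summed level of the 8 of 20 acinar markers with values was 116026 and 105002 TPM in saline mice, 36369 and 25042 TPM in AP mice and 19455 and 15409 TPM in polyI:C+AP mice, most of it from Sycn, a zymogen granule protein. Single acinar markers did not all follow the sum. Bhlha15, an acinar transcription factor, was at 391 and 326 TPM in saline mice, 53.6 and 46.4 TPM in AP mice and 161 and 171 TPM in polyI:C+AP mice, where it was higher than in AP mice by 1.73 on the log2 scale (limma adjusted p = 0.00397). Rbpjl, another acinar transcription factor, was higher in polyI:C+AP than in AP mice by 1.08 (limma adjusted p = 0.0335). The values of Ptf1a, Nr5a2 and Gatm in that comparison were 0.73, 0.55 and 0.49, with limma adjusted p from 0.0613 to 0.204. Those of Sycn, Cuzd1 and Tmed11 were -1.05, 0.08 and -0.04 (limma adjusted p from 0.0917 to 0.962). In polyI:C+AP versus saline mice, Ptf1a and Nr5a2 rose by 0.93 and 0.71 (limma adjusted p = 0.0158 and 0.00198). Sycn, Cuzd1, Tmed11, Bhlha15 and Gatm were lower there, at -2.87, -1.80, -4.75, -1.10 and -1.19 (limma adjusted p from 3.37e-05 to 0.000906). Rbpjl differed there by -0.15 (limma adjusted p = 0.472). The 7 duct markers summed to 301 and 269 TPM, 2357 and 2371 TPM, and 1984 and 2147 TPM in the same order. The 8 macrophage and monocyte markers summed to 552 and 379 TPM in saline mice, 2198 and 2447 TPM in AP mice and 282 and 196 TPM in polyI:C+AP mice. Most of this sum came from Lyz2, and single markers did not all follow it. In polyI:C+AP versus saline mice, Cd68 and Fcgr1 were higher, by 1.78 and 1.44 on the log2 scale (limma adjusted p = 0.00132 and 0.00454). Lyz2, Csf1r and Mrc1 were lower there, at -1.24, -1.01 and -0.98 (limma adjusted p from 0.00296 to 0.0116). None of the listed markers with values was at 0 in every library. These sums moved with the groups, and their part in the results for the calcium genes was not tested, so the name acinar is a label of the gene set and not of the cells that the RNA came from.

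The calcium genes spanned a wide range of levels, from below 1 TPM to 331 TPM, and their order was similar in the 3 groups. In saline mice, the highest mean level was that of Saraf at 288 TPM, followed by Atp2a2 at 183, Atp2b1 at 58.2, Itpr2 at 43.1, Itpr3 at 33.4, Stim1 at 17.1, Mcu at 12.5, Itpr1 at 10.9, Orai1 at 5.05 and Ryr2 at 0.125 TPM. The 2 saline values of each gene did not overlap with those of its neighbours in this order. In AP mice, Itpr3 stood above Itpr2 and Mcu above Stim1, while Itpr3 and Atp2b1 overlapped, as did Itpr1 and Orai1. In polyI:C+AP mice, Atp2b1 and Itpr3 overlapped, and the other neighbours were apart.

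**Figure D1:**
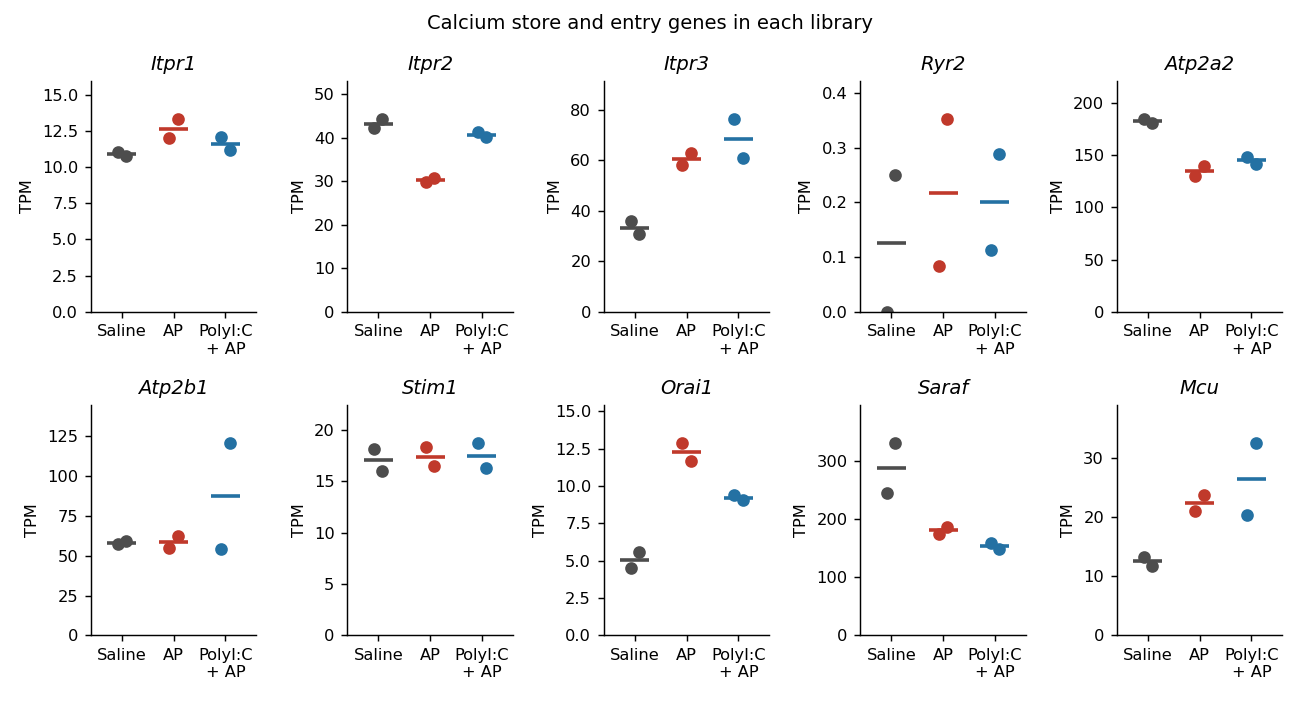
TPM of each of the 10 genes in each library (points) with the mean of the 2 libraries of a group (line), each panel on its own axis from 0. Orai1 lies between 4.53 and 5.57 TPM in saline mice and between 11.7 and 12.9 TPM in AP mice, Itpr2 is lower in AP mice than in both other groups, and 1 of the 2 polyI:C+AP libraries stands high for Atp2b1.

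In AP versus saline mice, 6 of the 9 tested genes passed an adjusted p of 0.05 (limma, Benjamini-Hochberg adjustment over 16814 genes), and 3 of them, Orai1, Itpr3 and Mcu, were higher while 3, Itpr2, Atp2a2 and Saraf, were lower. Of all tested genes, 40.4% passed this rule, 33% as higher and 7.39% as lower. Only Orai1 also reached a 2-fold change, a rule that 22.2% of all tested genes met, 18.2% as higher and 4.03% as lower. None of the 9 passed either rule in polyI:C+AP versus AP mice, where 1.23% of all tested genes passed the adjusted p and 0.845% also the 2-fold change. By limma, 1 of the 9, Itpr2, had an unadjusted p below 0.05 in that comparison, and by voom on estimated reads the same gene passed the adjusted p. Of the 9, 5 passed the adjusted p in polyI:C+AP versus saline mice, 3 higher and 2 lower, where 39.2% of all tested genes did so, 33.4% as higher and 5.8% as lower. Of these, Itpr3 and Mcu also reached a 2-fold change, a rule that 19.9% of all tested genes met, 16.9% as higher and 2.97% as lower. The libraries of the groups did not overlap for 7, 4 and 7 of the 9 genes in these comparisons, and for 69.1%, 49.8% and 68.4% of all tested genes.

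The scale of the TPM values bears on these directions. Over all tested genes the median log2 fold change was 0.45 in AP versus saline mice, 0.04 in polyI:C+AP versus AP mice and 0.48 in polyI:C+AP versus saline mice, and that of the 9 calcium genes was 0.03, 0.10 and 0.09. Scaling by the median of ratios between libraries brought the median of all genes to 0.05, 0.02 and 0.05. Of the genes called in AP versus saline mice, 81.8% were higher on the TPM scale and 56.1% after median-of-ratios scaling, and the shares for polyI:C+AP versus saline mice were 85.0% and 57.4%. Values on both scales are therefore given for each of the 9 calcium genes in the comparisons with saline mice. A gene is said to have risen or fallen where it passed an adjusted p of 0.05 on the TPM scale.

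**Figure D2:**
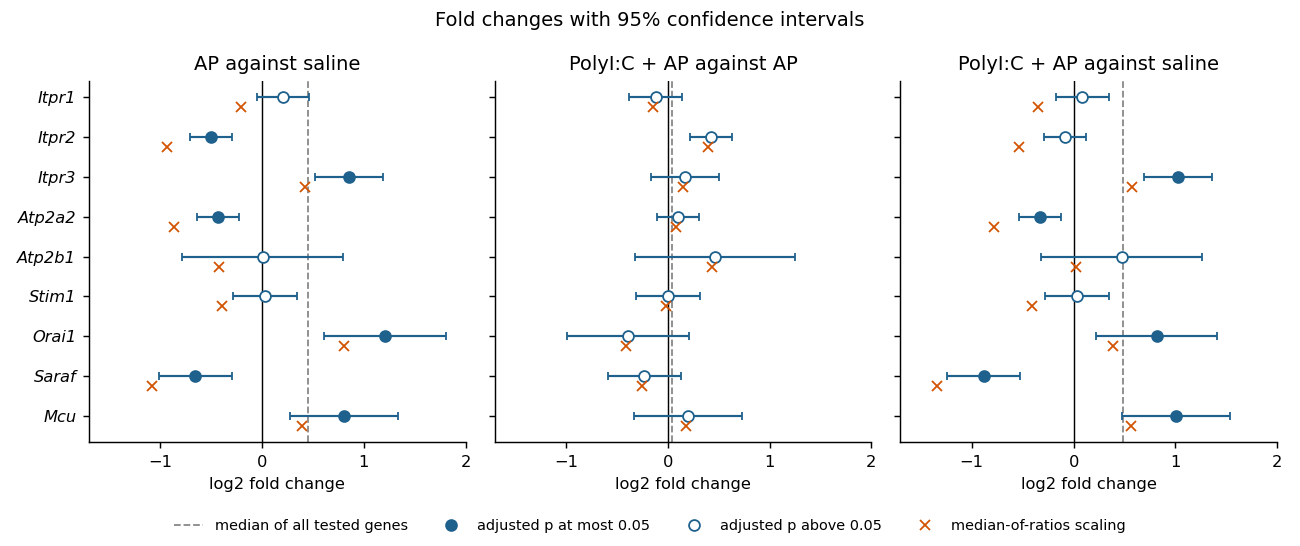
Log2 fold change on the TPM scale (circles) of the 9 tested genes with its 95% confidence interval in the 3 comparisons, filled where the adjusted p was at most 0.05. The dashed line is the median of all tested genes (0.45, 0.04 and 0.48) and crosses are the values after median-of-ratios scaling, where Itpr2, Atp2a2 and Saraf lie further below 0 in AP versus saline mice and Orai1, Itpr3 and Mcu closer to it.

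The sequences upstream of 3 of these genes are shown because Orai1 was the only gene of the set called in AP on the TPM scale and because Itpr2 and Itpr3, which encode the same kind of channel, moved in opposite directions. Each is the stretch of 250 bases before the annotated start, from RefSeq on GRCm38.p6, read 5′ to 3′ on the strand of the gene, with GC boxes (GGGCGG) and CCAAT boxes (CCAAT) of either strand in capitals. They come from chr5:123014824-123015073 on the plus strand for Orai1, chr6:146502224-146502473 on the minus strand for Itpr2 and chr17:27057054-27057303 on the plus strand for Itpr3.
Orai1: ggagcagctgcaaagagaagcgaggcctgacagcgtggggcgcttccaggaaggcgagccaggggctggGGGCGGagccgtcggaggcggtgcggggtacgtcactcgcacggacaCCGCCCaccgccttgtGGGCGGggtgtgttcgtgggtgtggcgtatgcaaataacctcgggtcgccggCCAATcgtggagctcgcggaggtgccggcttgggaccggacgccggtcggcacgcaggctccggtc
Itpr2: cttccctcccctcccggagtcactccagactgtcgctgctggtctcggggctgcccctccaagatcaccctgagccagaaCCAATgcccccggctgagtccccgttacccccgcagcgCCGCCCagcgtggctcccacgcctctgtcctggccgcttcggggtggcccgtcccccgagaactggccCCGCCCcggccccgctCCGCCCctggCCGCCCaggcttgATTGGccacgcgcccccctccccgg
Itpr3: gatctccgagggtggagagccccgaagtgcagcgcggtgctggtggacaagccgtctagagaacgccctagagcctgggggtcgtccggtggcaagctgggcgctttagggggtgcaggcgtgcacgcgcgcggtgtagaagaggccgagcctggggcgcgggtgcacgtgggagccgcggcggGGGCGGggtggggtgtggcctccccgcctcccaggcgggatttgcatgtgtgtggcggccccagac
The window of Orai1 held 3 GC boxes and 1 CCAAT box, that of Itpr2 held 4 GC boxes and 2 CCAAT boxes, and that of Itpr3 held 1 GC box and no CCAAT box. Of the 32851 mouse promoter windows of this length, 32.7% held a GC box and 33.8% a CCAAT box. A TATA box (TATAAA), searched on both strands, was in none of the windows of the 7 calcium genes with an entry and in 12.4% of all windows. The AP-1 site (TGANTCA), present in 6.75% of all windows, was found for Mcu only. The GC content of the 3 windows shown was 70.8%, 74.4% and 72.0%, versus a median of 52.4% over all windows.

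The release channels changed in composition rather than in 1 direction. Itpr2 (ENSMUSG00000030287, chromosome 6, 146108299 to 146502223 on GRCm38), a release channel that with Itpr3 carries most of the store release in acinar cells, was at 42.1 and 44.2 TPM in saline mice, 29.8 and 30.8 TPM in AP mice and 41.3 and 40.1 TPM in polyI:C+AP mice. Both AP libraries lay below all other libraries, and the polyI:C+AP libraries lay just below the saline ones. Itpr2 fell in AP mice, with a log2 fold change of -0.50 (SE 0.09, n = 2 per group, limma adjusted p = 0.00413) on the TPM scale and -0.93 after median-of-ratios scaling (adjusted p = 0.000521), and it passed the adjusted p in all 17 alternatives tried. Versus AP mice it was higher in polyI:C+AP mice by 0.42 on the log2 scale (95% confidence interval 0.21 to 0.63), which missed the threshold by limma (adjusted p = 0.0827) and passed it by voom on estimated reads (adjusted p = 0.0451). Over the 17 alternatives this adjusted p ranged from 0.0451 to 0.407. Versus saline mice the difference was -0.08 on the TPM scale (adjusted p = 0.488), and -0.53 after median-of-ratios scaling, which passed (adjusted p = 0.00509).

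Itpr3 (ENSMUSG00000042644, chromosome 17, 27057304 to 27122223), the other major release channel of acinar cells, moved the other way. Its level was 36.0 and 30.8 TPM in saline mice, 58.0 and 63.0 TPM in AP mice and 76.3 and 61.0 TPM in polyI:C+AP mice. The saline libraries lay below the other 4, and the groups given caerulein overlapped. Itpr3 rose in AP mice by 0.85 on the log2 scale (SE 0.14, limma adjusted p = 0.00341) and by 0.43 after median-of-ratios scaling (adjusted p = 0.0432), and the adjusted p was above 0.05 with upper-quartile scaling (adjusted p = 0.0683) and without AP replicate 2 (adjusted p = 0.0657). Itpr3 also rose in polyI:C+AP versus saline mice, by 1.02 (SE 0.14, limma adjusted p = 0.00178), past 2-fold, and by 0.57 after median-of-ratios scaling (adjusted p = 0.0174). This adjusted p stayed below 0.05 in all 17 alternatives. Between the groups given caerulein the difference was 0.17 (95% confidence interval -0.16 to 0.50, limma adjusted p = 0.662). A stretch of 2.58% of the exon bases of Itpr3 is shared with Itpr3os on the opposite strand. Whether counting used strand was not given in the sources used here.

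Itpr1 (ENSMUSG00000030102), the IP3 receptor known best from neurons, was the lowest of the 3, at 11.0 and 10.8 TPM in saline mice, 12.0 and 13.3 TPM in AP mice and 12.0 and 11.1 TPM in polyI:C+AP mice. Its difference in AP versus saline mice was 0.21 on the log2 TPM scale (95% confidence interval -0.05 to 0.46, limma adjusted p = 0.178) and changed sign to -0.21 after median-of-ratios scaling (adjusted p = 0.166). The difference of polyI:C+AP from saline mice was 0.09 on the TPM scale (adjusted p = 0.568) and -0.35 after median-of-ratios scaling, which passed (adjusted p = 0.0433). Versus AP mice the difference in polyI:C+AP mice was -0.12 (95% confidence interval -0.38 to 0.14, limma adjusted p = 0.695).

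Shares within a library do not depend on the scaling between libraries. The share of Itpr2 was lower and that of Itpr3 higher in mice given caerulein. The level of Itpr2 itself in polyI:C+AP mice was near that of saline mice on the TPM scale only. After median-of-ratios scaling it was lower, at -0.53 (limma adjusted p = 0.00509). Of the summed TPM of the 3 IP3 receptors, Itpr2 made up 47.2% and 51.5% in saline mice, 29.8% and 28.7% in AP mice and 31.9% and 35.7% in polyI:C+AP mice. Itpr3 made up 40.4% and 36.0%, then 58.1% and 58.9%, then 58.8% and 54.3%. Itpr2 was thus the leading IP3 receptor transcript in both saline libraries and Itpr3 in the other 4 libraries. The share of Itpr1 was 12.4% and 12.6% in saline mice, 12.0% and 12.4% in AP mice and lower, at 9.29% and 9.93%, in polyI:C+AP mice. Where the libraries of 2 groups did not overlap, the exact two-sided permutation test gave p = 0.333, the smallest that 2 versus 2 libraries allow. The summed level of the 3 receptors was 89.1 and 85.7 TPM in saline mice, 99.8 and 107 TPM in AP mice and 129.6 and 112 TPM in polyI:C+AP mice.

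**Figure D3:**
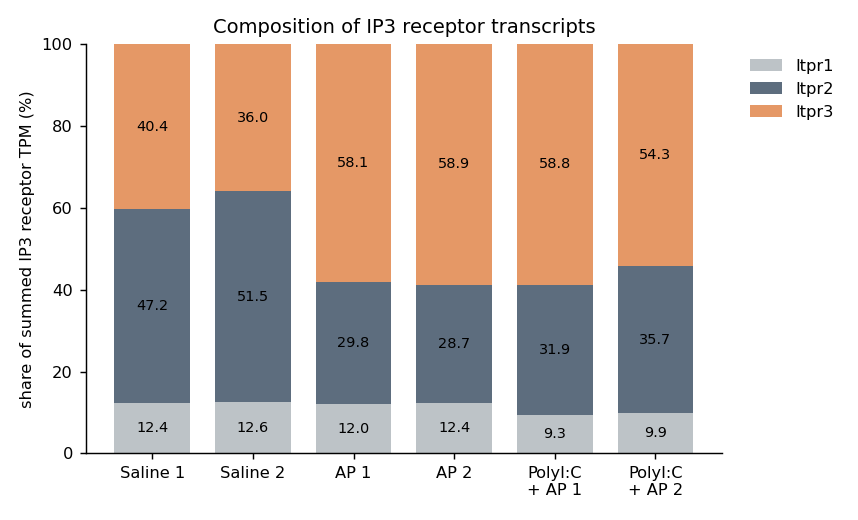
Share (%) of Itpr1, Itpr2 and Itpr3 in the summed TPM of the 3 IP3 receptor genes, 1 bar per library. Itpr2 takes 47.2% and 51.5% in saline mice and between 28.7% and 35.7% in the 4 libraries from mice given caerulein, where Itpr3 takes between 54.3% and 58.9%.

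Ryr2 (ENSMUSG00000021313), the ryanodine receptor typical of heart muscle, which opens on calcium itself, was barely detected. It was listed at 0 in saline replicate 1 and at 0.250 TPM in saline replicate 2, at 0.0833 and 0.351 TPM in AP mice and at 0.113 and 0.288 TPM in polyI:C+AP mice. These values rest on an estimated 0 to 27.3 reads, and the 0 allows a level of up to 0.0714 TPM (3 reads, counting error only). No difference between groups was detectable at this depth. The other ryanodine receptor genes Ryr1 and Ryr3 also had a mean below 1 TPM and were not tested.

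Of the pumps, the pump that refills the store was lower after caerulein, and the pump that expels calcium from the cell varied within a group. Atp2a2 (ENSMUSG00000029467, chromosome 5, 122453513 to 122502225), which encodes SERCA2, was at 184 and 181 TPM in saline mice, 130.2 and 139.9 TPM in AP mice and 149 and 142 TPM in polyI:C+AP mice. The 3 groups did not overlap. Atp2a2 fell in AP mice by 0.43 on the log2 scale (SE 0.09, limma adjusted p = 0.00762) and by 0.86 after median-of-ratios scaling (adjusted p = 0.000593). Without AP replicate 1, the adjusted p was 0.0615, and with a constant prior variance it was 0.0534. It also fell in polyI:C+AP versus saline mice, by 0.33 (SE 0.09, limma adjusted p = 0.0234), with an adjusted p above 0.05 under a constant prior variance (adjusted p = 0.102), without saline replicate 1 (adjusted p = 0.0536) and without polyI:C+AP replicate 1 (adjusted p = 0.0675) or 2 (adjusted p = 0.101). After median-of-ratios scaling, the value of Atp2a2 in polyI:C+AP versus saline mice was -0.78 (limma adjusted p = 0.00101). Between the groups given caerulein, the difference was 0.10 on the TPM scale (95% confidence interval -0.10 to 0.31, limma adjusted p = 0.671). The level of Itpr2 relative to Atp2a2 was 0.228 and 0.244 in saline mice, 0.229 and 0.220 in AP mice and 0.278 and 0.283 in polyI:C+AP mice, so that the AP and saline mice overlapped in this ratio and the polyI:C+AP mice stood above both.

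Atp2b1 (ENSMUSG00000019943, chromosome 10, 98914406 to 99026143), a plasma membrane calcium pump, was at 57.2 and 59.2 TPM in saline mice, 54.8 and 62.4 TPM in AP mice and 54.1 and 121 TPM in polyI:C+AP mice. The high value came from polyI:C+AP replicate 2 alone, and the log2 difference of 1.15 between the 2 libraries of that group was larger than that of 89.0% of the tested genes. The difference in AP versus saline mice was 0.01 (95% confidence interval -0.78 to 0.80, limma adjusted p = 0.994) on the TPM scale and -0.42 after median-of-ratios scaling. The polyI:C+AP mice differed from AP mice by 0.46 (95% confidence interval -0.33 to 1.25, adjusted p = 0.616), and -0.11 without polyI:C+AP replicate 2. Versus saline mice the difference was 0.47 on the TPM scale (limma adjusted p = 0.304) and 0.02 after median-of-ratios scaling (adjusted p = 0.977). On the TPM scale it was 1.05 without polyI:C+AP replicate 1 and -0.10 without replicate 2, so that 1 library decided the value.

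In store-operated entry, Orai1 rose in AP, Stim1 did not pass on the TPM scale and Saraf, the gene of an inhibitor, fell. Orai1 was at a lower level than its relatives Orai2 and Orai3, which had saline means of 48.4 and 21.8 TPM. Orai2 fell in AP mice, as described below, and Orai3 differed by -0.08 on the log2 scale (limma adjusted p = 0.822). Stim2, a relative of Stim1 with a saline mean of 31.0 TPM, differed by 0.30 (limma adjusted p = 0.0710). These relatives were named after their values were seen. Orai1 (ENSMUSG00000049686, chromosome 5, 123015074 to 123030456), which encodes the pore of the entry channel, was at 4.53 and 5.57 TPM in saline mice, 12.9 and 11.7 TPM in AP mice and 9.42 and 9.03 TPM in polyI:C+AP mice. The 3 groups did not overlap, with the polyI:C+AP mice between the others. Orai1 rose in AP mice by 1.21 on the log2 scale, or 2.31-fold (SE 0.25, limma adjusted p = 0.00884). The saline values rest on an estimated 15.2 reads each and the AP values on 63.1 and 72.4 reads. After median-of-ratios scaling the change was 0.81 (adjusted p = 0.0529), by voom it was 1.01 (adjusted p = 0.0537), and without AP replicate 1 or 2 the adjusted p was 0.0707 or 0.0609, so that the call of this gene stood close to the threshold. In polyI:C+AP versus AP mice the difference was -0.39 (95% confidence interval -0.99 to 0.20, limma adjusted p = 0.568). Versus saline mice Orai1 rose by 0.81 (SE 0.25, adjusted p = 0.0404), with an adjusted p above 0.05 in 10 of the 17 alternatives, among them median-of-ratios scaling (0.39, adjusted p = 0.307) and leaving out saline replicate 1 (adjusted p = 0.0850) or any library from mice given caerulein (adjusted p from 0.0813 to 0.124).

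Stim1 (ENSMUSG00000030987), which encodes the calcium sensor of the store, was at 18.2 and 16.0 TPM in saline mice, 18.3 and 16.5 TPM in AP mice and 18.7 and 16.2 TPM in polyI:C+AP mice. The 3 groups overlapped. The difference in AP versus saline mice was 0.03 on the log2 TPM scale (95% confidence interval -0.29 to 0.34, limma adjusted p = 0.897) and -0.39 after median-of-ratios scaling (adjusted p = 0.0538). Compared with saline mice, the difference in polyI:C+AP mice was 0.03 (adjusted p = 0.868), or -0.41 on the median-of-ratios scale (adjusted p = 0.0526) and -0.46 with upper-quartile scaling, which passed (adjusted p = 0.0435). Compared with AP mice it was 0.01 (95% confidence interval -0.31 to 0.32), or -0.02 after median-of-ratios scaling. The ratio of Orai1 to Stim1, which is free of that scaling, was 0.250 and 0.349 in saline mice, 0.702 and 0.710 in AP mice and 0.504 and 0.556 in polyI:C+AP mice.

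Saraf (ENSMUSG00000031532), whose product limits store-operated entry through STIM1, was the most abundant of the 10 transcripts. It was at 245 and 331 TPM in saline mice, 175 and 186 TPM in AP mice and 159 and 149 TPM in polyI:C+AP mice. The 3 groups did not overlap, although the saline libraries lay far apart. Saraf fell in AP mice by 0.65 on the log2 scale (SE 0.15, limma adjusted p = 0.0130) and by 1.08 after median-of-ratios scaling (adjusted p = 0.00254), past 2-fold. The adjusted p was above 0.05 in 6 of the 17 alternatives, among them leaving out AP replicate 1 (adjusted p = 0.128) or 2 (adjusted p = 0.102) or either polyI:C+AP library (adjusted p = 0.0633). Saraf also fell in polyI:C+AP mice relative to saline mice, by 0.88 (SE 0.15, limma adjusted p = 0.00420) and by 1.34 after median-of-ratios scaling (adjusted p = 0.00135). Leaving out either polyI:C+AP library raised the adjusted p above 0.05, to at most 0.0735. Versus AP mice the difference was -0.23 (95% confidence interval -0.59 to 0.13, limma adjusted p = 0.578). The ratio of Saraf to Orai1 was 54.0 and 59.4 in saline mice, 13.6 and 16.0 in AP mice and 16.9 and 16.5 in polyI:C+AP mice. The groups of this ratio did not overlap, and the exact permutation test gave p = 0.333.

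Mcu (ENSMUSG00000009647, chromosome 10, 59446984 to 59616692), the pore of the mitochondrial calcium uniporter, was at 13.3 and 11.7 TPM in saline mice, 20.95 and 23.7 TPM in AP mice and 20.3 and 32.4 TPM in polyI:C+AP mice. The saline libraries lay below all others, and the libraries of the 2 groups given caerulein overlapped. Mcu rose in AP mice by 0.81 (SE 0.22, limma adjusted p = 0.0264) and in polyI:C+AP versus saline mice by 1.01 (SE 0.22, adjusted p = 0.0118). Each adjusted p was above 0.05 in 10 of the 17 alternatives. After median-of-ratios scaling the values were 0.39 (adjusted p = 0.244) and 0.57 (adjusted p = 0.116). The AP value missed the adjusted p when any saline or AP library was left out (adjusted p from 0.0866 to 0.200), and the other value missed it without either saline library, either AP library or polyI:C+AP replicate 2 (adjusted p from 0.0539 to 0.0845). Between the groups given caerulein the difference was 0.20 (95% confidence interval -0.33 to 0.73, limma adjusted p = 0.758), and -0.13 without polyI:C+AP replicate 2.

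A wider list of 67 calcium-handling genes, written by role and not by how the genes moved, placed these values among their partners. Values were found for 65 of them and 56 were tested. In AP versus saline mice, 11 passed the adjusted p and the 2-fold change as higher and 3 as lower, that is 14 of 56, where 22.2% of all tested genes were called. In polyI:C+AP versus AP mice 1 was called as higher, where 0.44% of all tested genes were called as higher, and in polyI:C+AP versus saline mice 10 were called as higher and 2 as lower, where 19.9% of all tested genes were called. The median log2 fold change of the 56 was 0.32, 0.08 and 0.40 in these comparisons, versus 0.45, 0.04 and 0.48 for all tested genes.

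A gene of this list is counted below as called where it passed both the adjusted p and the 2-fold change in AP versus saline mice. Among 6 tested release channels and regulators, 3 were called as higher and none as lower. They were Itpripl1 and Itpripl2, relatives of an IP3 receptor-binding protein, and Bok, a BCL-2 family protein that binds IP3 receptors. Itpripl1 was at 2.42 and 1.79 TPM in saline mice, 15.6 and 14.5 TPM in AP mice and 9.33 and 8.61 TPM in polyI:C+AP mice, a rise of 2.59 on the log2 scale in AP mice (SE 0.22, limma adjusted p = 0.000283). Itpripl2 rose by 1.48 (SE 0.11, adjusted p = 0.000171) and Bok by 1.12 (SE 0.13, adjusted p = 0.000933). After median-of-ratios scaling the value of Bok was 0.69, below 2-fold. Of the 4 endolysosomal release genes, Cd38, an enzyme that makes calcium-mobilizing nucleotides, was at 6.27 and 2.84 TPM in saline mice, 13.3 and 19.2 TPM in AP mice and 9.38 and 20.9 TPM in polyI:C+AP mice. It rose by 1.79 in AP mice (SE 0.47, limma adjusted p = 0.0217), a call lost in 10 of the 17 alternatives, among them leaving out saline replicate 2, either AP library or either polyI:C+AP library (adjusted p up to 0.202).

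Among 6 tested pumps, exchangers and pump regulators, 1 was called as lower and none as higher. Atp2c2, a calcium pump of the secretory pathway, was at 33.0 and 26.3 TPM in saline mice, 9.52 and 8.48 TPM in AP mice and 3.50 and 4.52 TPM in polyI:C+AP mice. The 3 groups did not overlap. It fell by 1.66 in AP mice (SE 0.21, limma adjusted p = 0.00125) and by 2.74 in polyI:C+AP versus saline mice (SE 0.21, adjusted p = 0.000231), and the difference between the groups given caerulein was -1.08 (adjusted p = 0.0727).

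Of 10 tested entry genes, 2 were called as higher and 1 as lower. Cracr2a, which encodes a calcium-binding regulator of ORAI1, was at 11.6 and 10.9 TPM in saline mice, 2.34 and 2.45 TPM in AP mice and 1.99 and 2.93 TPM in polyI:C+AP mice. It fell by 2.02 in AP mice (SE 0.21, limma adjusted p = 0.000631) and passed both rules in all 17 alternatives. Orai2, a paralogue of Orai1 that was named after its values were seen, was at 47.9 and 48.8 TPM in saline mice, 26.7 and 25.6 TPM in AP mice and 33.1 and 31.9 TPM in polyI:C+AP mice. It fell in AP mice by 0.87 on the log2 TPM scale, below 2-fold (SE 0.10, limma adjusted p = 0.000793), and by 1.30 after median-of-ratios scaling. Piezo1, a mechanically gated cation channel, rose by 1.63 (SE 0.18, adjusted p = 0.000812), from 3.39 and 2.50 TPM to 9.47 and 10.7 TPM, and was at 5.32 and 5.77 TPM in polyI:C+AP mice, a difference of -0.81 from AP mice (adjusted p = 0.110). Trpc1, a cation channel of the TRP family, rose by 1.18 (SE 0.29, adjusted p = 0.0180), and by 0.88 after median-of-ratios scaling (adjusted p = 0.0656), and its call was also lost without AP replicate 1 (adjusted p = 0.0706) or 2 (adjusted p = 0.113).

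Of 11 tested mitochondrial genes, 1 was called, as higher. Mcub, which encodes a subunit that lowers the conductance of the MCU channel, was at 2.53 and 1.38 TPM in saline mice, 14.97 and 17.8 TPM in AP mice and 11.4 and 10.7 TPM in polyI:C+AP mice. It rose by 2.82 in AP mice (SE 0.35, limma adjusted p = 0.00120) and by 2.27 in polyI:C+AP versus saline mice (SE 0.35, adjusted p = 0.00296), and both calls held in all 17 alternatives. The saline values of Mcub rest on an estimated 4.86 and 2.16 reads and the AP values on 42.1 and 63.2 reads. The size of its change is therefore imprecise. Among 7 tested leak and buffer genes, Rcn1, a calcium-binding protein of the endoplasmic reticulum, rose by 1.38 (SE 0.14, adjusted p = 0.000619), and by 0.96 after median-of-ratios scaling.

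Among 12 tested genes for calmodulin, calcineurin and NFAT, the readers of cytosolic calcium, those called as higher included Rcan1 and Calm2, and 1 was called as lower. Rcan1, which encodes a regulator of calcineurin and is itself a known target of calcineurin and NFAT, was at 31.7 and 32.9 TPM in saline mice, 237 and 226 TPM in AP mice and 209 and 197 TPM in polyI:C+AP mice. It rose by 2.82 in AP mice (SE 0.09, limma adjusted p = 1.5e-05) and by 2.63 in polyI:C+AP versus saline mice (SE 0.09, adjusted p = 2.23e-05), and both calls held in all 17 alternatives. Calm2, a calmodulin gene, was at 122 and 147 TPM in saline mice, 345 and 391 TPM in AP mice and 276 and 271 TPM in polyI:C+AP mice. It rose by 1.45 in AP mice (SE 0.12, limma adjusted p = 0.000296) and by 1.02 after median-of-ratios scaling. Its values are less certain, since close copies of calmodulin genes occur in the genome.

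Rcan2, a close relative of Rcan1, was the only listed gene called between the groups given caerulein. It was at 40.3 and 32.9 TPM in saline mice, 16.5 and 18.9 TPM in AP mice and 49.5 and 43.5 TPM in polyI:C+AP mice, and the AP libraries lay below all others. It fell by 1.03 in AP mice (SE 0.15, limma adjusted p = 0.00224), with values below 2-fold without saline replicate 1 (-0.88) or AP replicate 1 (-0.93), and was higher by 1.37 in polyI:C+AP than in AP mice (SE 0.15, adjusted p = 0.0190). The latter call was lost in 6 of the 17 alternatives, namely with another prior variance and without either AP library or either polyI:C+AP library, with an adjusted p of up to 0.322. Versus saline mice the difference was 0.34 on the TPM scale (adjusted p = 0.117) and -0.11 after median-of-ratios scaling.

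**Figure D4:**
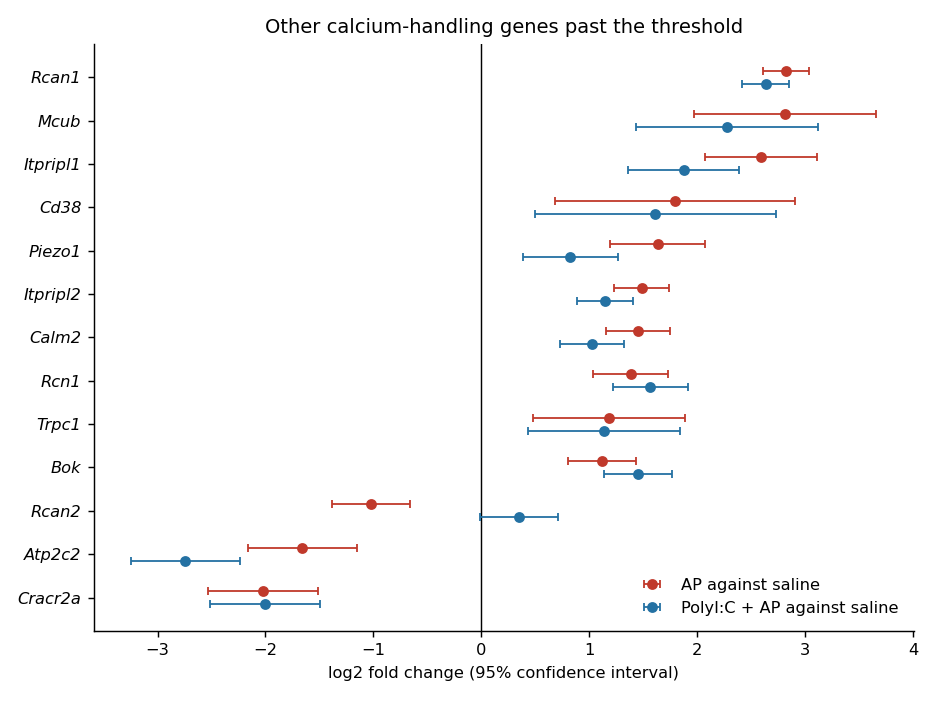
Log2 fold change on the TPM scale with 95% confidence interval of 13 of the 14 genes of the wider list that passed the threshold in AP versus saline mice (red), beside the value in polyI:C+AP versus saline mice (blue). Both comparisons use the same saline libraries. Rcan1 and Mcub stand highest at 2.82 in AP versus saline mice and Cracr2a lowest at -2.02. The saline values of Mcub rest on an estimated 4.86 and 2.16 reads. Rcan2 is at -1.03 in AP and at 0.34 in polyI:C+AP mice.

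On the TPM scale Orai1 had the largest change of the 9 tested genes in AP mice, whereas after median-of-ratios scaling Saraf, Itpr2 and Atp2a2 had larger ones. The genes whose log2 levels correlated best with that of Orai1 over the 6 libraries were Fam168b, Polr3g, Dnaaf5, Jpt2 and Ywhaq. A correlation does not compare the sizes of the changes. Among the 12036 genes whose mean reached 5 TPM, their Pearson correlations with Orai1 ranged from 0.998 to 0.999. These are descriptions over 6 libraries, and the libraries of a group share a treatment, while depth and the marker sums differed between the groups. Polr3g, a subunit of RNA polymerase III, for example, was at 4.94 and 6.20 TPM in saline mice, 15.4 and 14.7 TPM in AP mice and 11.2 and 10.3 TPM in polyI:C+AP mice. Fam168b changed less for its level, from 40.8 and 44.6 TPM in saline mice to 62.3 and 60.9 TPM in AP mice.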

How the data were processed

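RNA-sequencing of whole pancreas from 6 mice was used, with groups and replicate numbers from the sample labels. The labels do not say more about how the mice of a group relate, so p-values measure the spread between these libraries. The authors used Trimmomatic for trimming, STAR for alignment to mm10 and htseq-count for counting, and deposited TPM values per gene. How TPM was made from counts was not given in the sources used here. Each table sums to 1000000 over 22556 genes, TPM is relative to these genes, and most digestive enzyme genes were not analysed here. Gene symbols came from GENCODE M21 (22490 identifiers matched). The genes and lists were chosen with earlier results of these data known.

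Values were tested with limma 3.58.1 (R 4.3.3) on log2(TPM + 0.5), with 1 coefficient per group, all 6 libraries in 1 fit, genes averaging 1 TPM or more (16814) and variances moderated along log2(mean TPM × exon length + 1). Fold changes on this scale understate the change of low genes. A gene was called at a Benjamini-Hochberg adjusted p up to 0.05 together with a change of 2-fold or more. Reads were estimated from the spacing of low TPM values, and between 51.2% and 62.4% of low values lay within 0.1 of a whole number of reads, compared with 19.2% to 20.2% with exon lengths shuffled, so no count model was the main test. Named genes of the wider list were, per role, up to 3 with the largest change among those called in AP versus saline mice, and any called in polyI:C+AP versus AP mice. Alternatives were pseudocounts of 0.1 and 1 TPM, other filters, scalings and priors, voom on estimated reads, only the groups compared, a replicate block, and omission of each library. Irag1 and Stimate were matched under older symbols, Sln and Itprip were not analysed here, and no promoter entry was used for Itpr1, Atp2a2 and Saraf. 1 called gene of the wider list is counted and not reported by name here.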

Additional observations from a re-analysis of the deposited data

How the results depend on the processing

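Over 27 fold changes of the 9 tested calcium genes and 17 alternatives each, 373 of 459 values kept their direction and side of the threshold, 51 kept their sign and lost the adjusted p, 5 kept their sign and gained it, and 30 changed sign, 3 of which then passed the adjusted p. All sign changes were in fold changes that had not passed on the TPM scale. With median-of-ratios scaling, upper-quartile scaling and voom in turn, Itpr1 gave -0.21, -0.23 and -0.031 in AP versus saline mice and -0.35, -0.40 and -0.19 in polyI:C+AP versus saline mice, and Stim1 gave -0.39, -0.42 and -0.23, then -0.41, -0.46 and -0.25, and -0.019, -0.038 and -0.024 in polyI:C+AP versus AP mice. Atp2b1 gave -0.42, -0.45 and -0.23 in AP versus saline mice and -0.026 with upper-quartile scaling in polyI:C+AP versus saline mice. Scaling removes a shift common to most genes by construction.

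Leaving out 1 library gave lowest and highest values of -0.085 and 0.10 for Atp2b1 in AP versus saline mice, -0.11 and 1.04 in polyI:C+AP versus AP mice and -0.10 and 1.05 in polyI:C+AP versus saline mice. For Stim1 they were -0.063 and 0.12, -0.094 and 0.10, and -0.066 and 0.13 in the same order, and for Mcu in polyI:C+AP versus AP mice -0.13 and 0.53. The share of Itpr1 in polyI:C+AP mice differed from that in AP mice by -2.93 to -2.29 percentage points and from that in saline mice by -3.17 to -2.53.

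Among the 9 calcium genes, the call in AP versus saline mice (1 gene) became 0 with voom and 6 with no minimum fold, and ranged from 0 (without either AP library) to 1 when a library was left out. The 2 calls in polyI:C+AP versus saline mice became 1 with a pseudocount of 1 TPM, either scaling, a constant prior, voom or only the groups compared, 5 with no minimum fold, and 0 to 2 when a library was left out (0 without saline replicate 2, and 1 without either AP library or polyI:C+AP replicate 2). With either scaling or voom that 1 call was a fall, of Saraf. For the wider list, the 14 calls in AP versus saline mice became 9 with upper-quartile scaling and 28 with no minimum fold, the 12 in polyI:C+AP versus saline mice became 7 with voom and 30 with no minimum fold, and the 1 in polyI:C+AP versus AP mice became 0 with a prior following mean log2 TPM or a constant prior, and 0 to 1 when a library was left out (0 without either AP or either polyI:C+AP library). On estimated reads, the share of Itpr1 differed by 1.38 points in AP versus saline mice (-0.24 on TPM) and by -4.06 in polyI:C+AP versus AP mice (-2.61 on TPM). Estimated reads were TPM multiplied by exon length on a scale set for each library. The shares on reads therefore also weight Itpr1, Itpr2 and Itpr3 by their exon lengths of 18319, 14802 and 9019 bases. The cause of the differences between groups was not tested. With n = 2 a left-out library leaves a lone sample that is assumed to vary like the others.

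Equal replicate numbers did not mark libraries that deviated alike (correlations of 0.01, 0.04 and -0.004 over 16814 genes). This check cannot tell whether mice of the same number were handled together. With the replicate number as a block, the counts of calls were the same (1, 0 and 2 calcium genes), and 1 adjusted p crossed 0.05, that of Orai1 in polyI:C+AP versus saline mice (0.0623).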
